A study of Mus musculus with 27 samples.

Results

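DNA methylation of the wild-type mouse line TET_WT was compared between D2 and D1 of its conversion into epiblast-like cells (EpiLC). Members were all windows of the deposited percent-methylation table that lie on autosomes and have a value in every library, which left 422141 of 453245 windows. The comparison used 6 of 27 libraries, 3 from D2 and 3 from D1. TET_WT is the parental line of TET_KO, which lacks Tet1, Tet2 and Tet3, and DNMT_WT is a wild-type line from which a Dnmt knockout was made. All lines began on D0 as embryonic stem cells grown in 2i/Lif. The second day of DNMT_WT and of TET_KO, with 3 libraries on each day, was set beside that of TET_WT. Strain, sex, clone and EpiLC medium are not given in the sources used here. The labels do not say whether the 3 libraries of a day came from separate cultures. The p-values therefore measure only the spread between libraries, which may be technical. Expression was not analysed here, so the EpiLC label was not checked against marker genes.

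Naive stem cells in 2i/Lif hold little DNA methylation, because maintenance by Dnmt1 and Uhrf1 is weak and the de novo enzymes Dnmt3a and Dnmt3b, with their cofactor Dnmt3l, are low. When cells leave the naive state the de novo enzymes rise and methylation spreads over most of the genome, while CpG islands at gene starts are largely spared. The Tet enzymes oxidise methylated cytosine and so work against this gain. Bisulfite conversion reads 5-methylcytosine and 5-hydroxymethylcytosine alike. In bulk DNA, more cells with a methylated copy and more methylation in each cell cannot be told apart.

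Gene starts differed in their gain by the number of CpGs before them, so 7 promoters that span this range are shown first. Each is the 250 bases before the annotated start, from RefSeq on GRCm38.p6, written 5′ to 3′ on the strand of the gene. Every CpG (motif CG, the same on both strands) is in capitals. At least 1 CpG stood in this stretch at 92.7% of the 14297 starts measured, with a median of 10. Klf4 (chr4:55532476-55532725, minus strand) and Tfcp2l1 (chr1:118627695-118627944, plus strand) encode factors of the naive state and had 32 and 16 CpGs. Nanog (chr6:122707239-122707488, plus strand), a core pluripotency factor, had 3, and Spic (chr10:88683024-88683273, minus strand), an Ets-family factor, had 1. Tie1 (chr4:118489850-118490099, minus strand), an endothelial receptor kinase, had 6, and Tdrd9 (chr12:111971309-111971558, plus strand), a helicase of the piRNA pathway, had 8. Nap1l5 (chr6:58907127-58907376, minus strand), an imprinted gene, had 10.
Klf4: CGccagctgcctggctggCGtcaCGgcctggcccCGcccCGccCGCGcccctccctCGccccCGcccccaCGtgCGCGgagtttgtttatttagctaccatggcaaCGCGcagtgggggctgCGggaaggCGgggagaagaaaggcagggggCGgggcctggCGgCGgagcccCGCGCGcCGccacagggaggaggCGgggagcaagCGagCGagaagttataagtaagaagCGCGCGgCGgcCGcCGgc
Tfcp2l1: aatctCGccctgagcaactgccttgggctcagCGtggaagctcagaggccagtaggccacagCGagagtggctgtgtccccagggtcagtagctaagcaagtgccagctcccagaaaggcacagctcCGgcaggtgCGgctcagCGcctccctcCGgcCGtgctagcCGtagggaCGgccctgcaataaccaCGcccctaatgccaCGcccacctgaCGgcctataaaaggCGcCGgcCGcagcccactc
Nanog: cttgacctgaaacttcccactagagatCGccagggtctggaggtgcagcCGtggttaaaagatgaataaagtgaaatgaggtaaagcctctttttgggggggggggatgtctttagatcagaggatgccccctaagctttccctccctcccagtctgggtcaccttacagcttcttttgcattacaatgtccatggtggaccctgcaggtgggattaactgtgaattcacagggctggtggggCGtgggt
Spic: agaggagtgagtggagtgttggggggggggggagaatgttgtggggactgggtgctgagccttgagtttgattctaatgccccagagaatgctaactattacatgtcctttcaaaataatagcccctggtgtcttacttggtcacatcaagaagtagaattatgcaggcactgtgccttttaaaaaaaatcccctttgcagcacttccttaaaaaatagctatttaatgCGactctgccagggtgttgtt
Tie1: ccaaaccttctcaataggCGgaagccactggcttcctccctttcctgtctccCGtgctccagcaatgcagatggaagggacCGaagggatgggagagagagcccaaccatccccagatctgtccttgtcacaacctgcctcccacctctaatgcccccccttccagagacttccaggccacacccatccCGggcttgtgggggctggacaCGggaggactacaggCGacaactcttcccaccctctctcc
Tdrd9: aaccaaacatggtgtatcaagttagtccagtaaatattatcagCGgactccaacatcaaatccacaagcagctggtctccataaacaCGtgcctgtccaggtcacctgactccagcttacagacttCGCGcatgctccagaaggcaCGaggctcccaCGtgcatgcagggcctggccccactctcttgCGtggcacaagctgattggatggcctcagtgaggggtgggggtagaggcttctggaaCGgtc
Nap1l5: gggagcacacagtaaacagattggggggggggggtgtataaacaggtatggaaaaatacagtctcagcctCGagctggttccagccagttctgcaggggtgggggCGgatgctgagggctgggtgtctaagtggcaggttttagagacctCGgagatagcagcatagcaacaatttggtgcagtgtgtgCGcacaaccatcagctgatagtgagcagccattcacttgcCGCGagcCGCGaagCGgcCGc

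The genome gained methylation between D1 and D2 almost everywhere. The mean over windows was 51.8%, 55.6% and 50.7% in the D2 libraries, against 34.2%, 31.3% and 34.2% in the D1 libraries. All D2 libraries lay above all D1 libraries, and the library numbered 2 was the highest on D2 and the lowest on D1. The step between the days was 19.5 ± 1.78 points (52.7% ± 2.58 on D2 and 33.2% ± 1.70 on D1, SD, n = 3 each), where the error of a step is an SE here and below, and the exact permutation test (two-sided) gave p = 0.1, which is as low as 6 libraries can reach. The preceding day had added 7.84 ± 1.00 points. Windows above 50% made up 62.8% ± 5.49 of the total on D2 and 11.3% ± 2.91 on D1. Windows under 10% made up 5.10% ± 0.130 on D2 and 7.50% ± 0.353 on D1. The 18560 windows of chromosome X, kept out of the tests, averaged 51.1% ± 2.72 on D2 and 34.4% ± 1.61 on D1.

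Window by window, a change was called at an adjusted p under 0.05 in limma together with a change of 10 percentage points or more. By this rule 374513 windows rose, 88.7% of those tested, and 7 fell (0.00166%). The change ran between -19.7 and 53.7 points, with a median of 20.6. In 95.2% of windows every D2 library lay above every D1 library. The SE and p of a window or gene came from limma, which pooled the spread of all 27 libraries. The D2 and D1 libraries of TET_WT varied more in genome mean (SD 2.58 and 1.70) than those of any other group (at most 1.17). For TET_WT these pooled errors may therefore be too small. Library medians moved by 22.6 points, and relative to the medians 8701 windows were higher on D2 and 74193 lower. The list medians and window-class means given below were all under 22.6 points and turn negative on that scale.

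**Figure D1:**
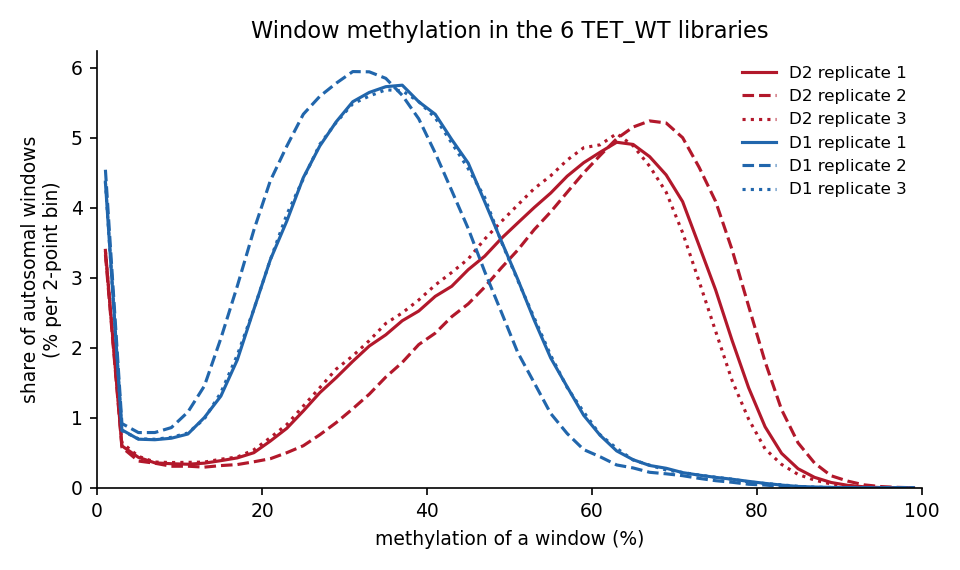
Distribution of window methylation in percent (x axis) in the 3 D2 and 3 D1 libraries of TET_WT, as the share of autosomal windows per 2-point bin (y axis), with one line per library. The D2 libraries have medians of 54.1% to 59.7%, the D1 libraries have medians of 31.6% to 34.9%, and both days keep windows near 0.

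Each window holds 100 CpGs, so a short window is CpG-dense and a long one CpG-poor. The densest windows hardly moved, and the largest rise lay in windows of middling length. The 15884 windows under 1 kb averaged 2.56%, 2.63% and 2.55% on D2, and 1.69%, 1.61% and 1.70% on D1. The days did not overlap even here, with a step of 0.913 ± 0.0386 points, and 1.51% were called. Windows of 1 to 3 kb rose by 18.03 ± 1.48 points. Those of 3 to 8 kb rose by 22.0 ± 1.89, with means of 59.2% on D2 and 37.2% on D1, and 97.5% were called. CpG-poor windows gained less, 15.9 ± 2.04 points at 8 to 16 kb and 13.4 ± 1.95 in the 948 windows over 16 kb. For each length class, the step less that of the other windows had an exact permutation p of 0.1, the smallest possible, and 0.1 after adjustment.

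**Figure D2:**
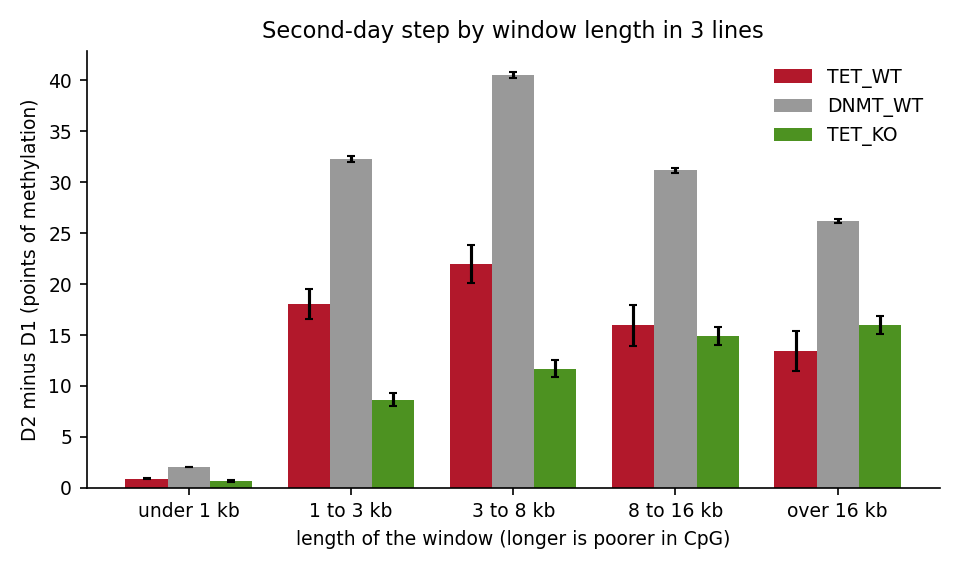
Mean change between D1 and D2 in percentage points (y axis) by window length (x axis) in TET_WT, DNMT_WT and TET_KO, with bars for the mean and error bars for the SE from 3 libraries a day. TET_WT peaks at 22.0 points in windows of 3 to 8 kb, DNMT_WT peaks there at 40.5, and TET_KO reaches 15.97 in windows over 16 kb; the TET_WT steps lie below the 22.6-point shift of library medians.

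The dependence on length differed between the lines. In TET_WT the step of windows of 8 to 16 kb less that of windows of 3 to 8 kb was -6.03 ± 0.388 points. It was -9.38 ± 0.103 in DNMT_WT and 3.24 ± 0.237 in TET_KO, which had the opposite sign. TET_WT less DNMT_WT gave 3.35 (two-sided exact permutation p = 0.01 over 400 arrangements of the lines within days). TET_WT less TET_KO gave -9.27 (exact permutation p = 0.005, the smallest reached). This comparison was chosen after the class values had been seen. TET_KO began the day at 59.3% on average, so its higher level and its lack of Tet cannot be told apart.

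Over the whole genome, the second day added 36.2 ± 0.292 points in DNMT_WT and 11.5 ± 0.761 in TET_KO, beside 19.5 in TET_WT. TET_WT less DNMT_WT was -16.7 ± 1.81 points and TET_WT less TET_KO was 7.97 ± 1.94. Permuting line labels within days gave exact p-values of 0.1 and 0.595. These mix in the gap in level between lines, so a version with each line's mean removed was added after the data had been seen, and it gave a permutation p of 0.005 for both. As a share of what was unmethylated on D1, TET_WT filled 29.2%, DNMT_WT 41.9% and TET_KO 28.3%. By windows, the TET_WT step was larger than that of DNMT_WT at 39 (0.00924%) and smaller at 353803 (83.8%). Against TET_KO it was larger at 187512 windows (44.4%) and smaller at 5514 (1.31%). Without D2 replicate 1 or 3 the 39 windows became 63 or 80, and without D2 replicate 2 the 5514 became 11125. On values centred on library medians, 48939 were larger and 14192 smaller against DNMT_WT, and 14587 larger and 67070 smaller against TET_KO.

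The gain also went with the level on D0, measured in libraries outside this comparison. Windows under 5% on D0 gained 5.06 ± 0.373 points, those of 20 to 30% gained 21.9 ± 2.03, those of 30 to 40% gained 22.4 ± 1.83 and those over 40% gained 17.95 ± 1.54. As a share of what was unmethylated on D1, the gain was 5.18% in windows under 5% on D0, 32.9% at 20 to 30% and 41.6% above 40%. Windows inside gene bodies gained 20.1 ± 1.72 points and those outside 18.8 ± 1.86. The 13690 windows that hold a gene start gained 9.88 ± 0.981, with 24.1% on D2 and 14.2% on D1.

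In bins of 1 Mb the rise was continuous along the autosomes. In all 2398 bins with at least 50 windows every D2 library lay above every D1 library, and the step ran between 7.67 and 25.3 points, with a median of 19.5. The highest bin, chr11:113000001-114000000, holds Sdk2 and the somatostatin receptor gene Sstr2 and had 61.5%, 64.9% and 60.2% on D2, and 38.5%, 34.4% and 37.9% on D1. The lowest, chr6:130000001-131000000, holds natural killer receptor genes (Klra1 and others) and had 30.7%, 35.7% and 30.5% on D2, and 25.5%, 23.1% and 25.4% on D1. Next lowest were bins with Slitrk6 (8.19 points), with the receptor phosphatase gene Ptprd (8.28) and with a cluster of Vmn1r pheromone receptor genes (8.35). Across bins, which share the same 6 libraries, the step had a Spearman rho of -0.779 with median window length, given as a description.

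Gene bodies rose nearly throughout, while gene starts split. A body value is the mean of all windows overlapping the gene, its start window included. Body and start values therefore share data, and in a short gene they can come from the same window. The mean over the body rose in 18447 of 20352 genes (90.6%), with a median of 18.9 points. It fell in 0 genes (0%) in limma, and in 0 at an unadjusted p under 0.05. The window holding the annotated start rose in 6335 of 14297 genes (44.3%), with a median of 7.98 points, and fell in 1 (0.00699%). That gene was Rev1, a translesion polymerase, with 0%, 0% and 0.794% on D2, and 0%, 31.9% and 1.16% on D1, and the fall was carried by D1 replicate 2, with a change of -0.317 points without it. Of the 12920 genes with both measures whose body rose, 6204 (48.0%) also rose at the start and 5339 (41.3%) had a start under 10% on D2.

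By the median, starts with 3 to 5 CpGs in the 250 bases upstream rose most. Starts with 0 to 2 CpGs, the largest class with 3274, had medians of 44.9% on D2 and 26.9% on D1, and 86.6% were called. At 3 to 5 CpGs the median was 47.3%, 51.5% and 45.8% on D2, and 28.3%, 25.03% and 28.3% on D1, and 84.9% of the 1877 were called. Starts with 6 to 10 CpGs had medians of 23.8% on D2 and 12.4% on D1, and 53.7% were called. With 11 to 15 CpGs the medians were 7.19% on D2 and 2.73% on D1, and 25.3% were called. From 3 to 5 CpGs upward the gain thinned out over several classes. Above 20 CpGs the median was 0.309%, 0% and 0.389% on D2, and 0.155%, 0.211% and 0.179% on D1, so the days overlapped, and 91.0% of these 3049 starts were under 10% on D2. The CpG classes were chosen after the values had been seen.

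**Figure D3:**
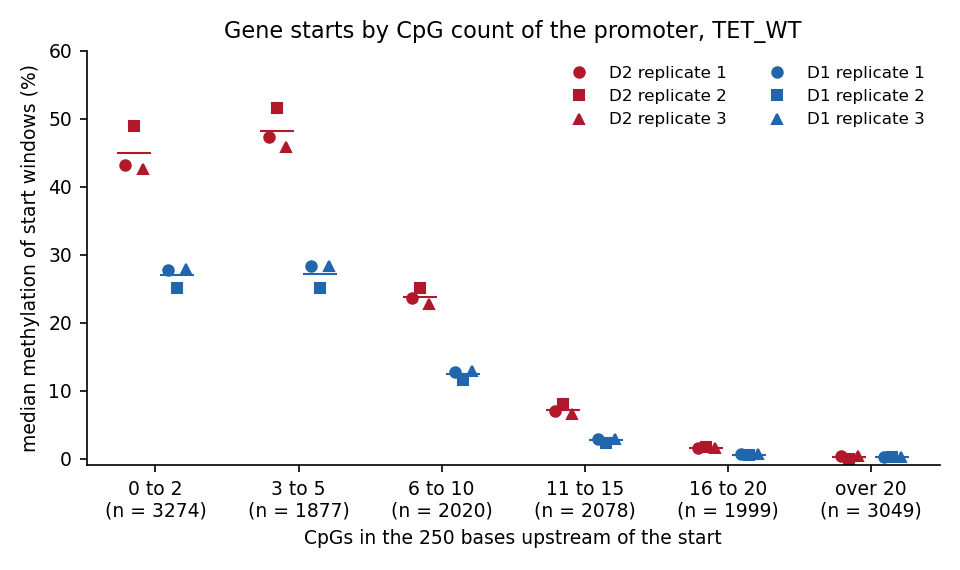
Median methylation in percent (y axis) of windows at gene starts by the number of CpGs in the 250 bases upstream (x axis), with one point per D2 and D1 library of TET_WT and a bar at their mean. The days stand 21.03 points apart at 3 to 5 CpGs and 0.0508 points apart above 20.

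Genes of naive pluripotency gained over their bodies and mostly not at their starts. Of the measured bodies 27 of 34 rose (79.4%, against 90.6% of all bodies), with a median of 19.2 points beside 18.9 for all genes. At the start 5 of 20 rose (25%, against 44.3% of all starts), with a median of 0.695 beside 7.98 for all starts. Of the 20 starts 14 were under 10% on D2 (70%, against 42.8% of all starts). Klf4 had 0%, 0% and 1.89% on D2, and 1.52%, 0.366% and 0% on D1 at its start. Tfcp2l1 had 0.459%, 1.18% and 0% on D2, and 0.617%, 0.411% and 0.521% on D1 at its start. The days overlapped near 0 at both of these CpG-dense promoters, which are printed above. Over its body Tfcp2l1 had 53.8%, 56.2% and 50.4% on D2, and 23.6%, 19.6% and 24.3% on D1, without overlap, a rise of 31.0 ± 1.28 points. The Klf4 body averaged 8.82% ± 1.97 on D2 and 1.08% ± 0.355 on D1, a change of 7.74 ± 0.603 points that was under the 10-point minimum. Sox2, a pluripotency factor of both states, averaged 0.175% ± 0.0223 on D2 and 0.115% ± 0.105 on D1 over its body.

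The 5 naive starts that rose were those of Spic, Esrrb, Tcl1, Nr5a2 and Zfp600, with 1, 6, 7, 2 and 2 upstream CpGs. Only the outermost annotated start of a gene was measured, which need not be the one used in these cells. The Esrrb start window had already averaged 22.1% on D0. Spic had 59.1%, 64.4% and 57.0% on D2, and 25.9%, 17.5% and 23.8% on D1, without overlap, a rise of 37.8 ± 2.13 points (limma adjusted p = 2.3e-12). Tcl1, a cofactor of Akt signalling, had 29.5%, 33.5% and 31.2% on D2, and 6.34%, 4.86% and 7.01% on D1, also without overlap, a rise of 25.3 ± 1.37. Nr5a2, a nuclear receptor, rose by 17.9 ± 2.00 and the zinc finger gene Zfp600 by 13.9 ± 2.37, both less than the shift of library medians.

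Nanog had a low start, while its body rose by 19.9 ± 1.03 points, close to the median of 18.9 for all bodies. Its start window (chr6:122706585-122709443) had 3.95%, 6.39% and 5.35% on D2, and 0.258%, 0.656% and 0.243% on D1. The days did not overlap, and the change of 4.84 ± 0.587 points (limma adjusted p = 9.4e-08) was below the 10-point minimum. The next window (chr6:122709508-122713698) had 47.6%, 55.7% and 45.7% on D2, and 9.25%, 8.43% and 9.76% on D1, a rise of 40.5 ± 2.07. The third window (chr6:122713699-122718582) had 30.2%, 34.4% and 30.3% on D2, and 18.6%, 15.5% and 17.6% on D1, a rise of 14.4 ± 1.83, so the gain within the gene was uneven. Among all starts with 3 to 5 CpGs, 6.07% were under 10% on D2. The Nanog start gained 11.8 points in DNMT_WT and 19.7 in TET_KO. TET_WT less DNMT_WT was -6.95 (limma adjusted p = 6.4e-07) and TET_WT less TET_KO was -14.9 (limma adjusted p = 7.9e-11).

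**Figure D4:**
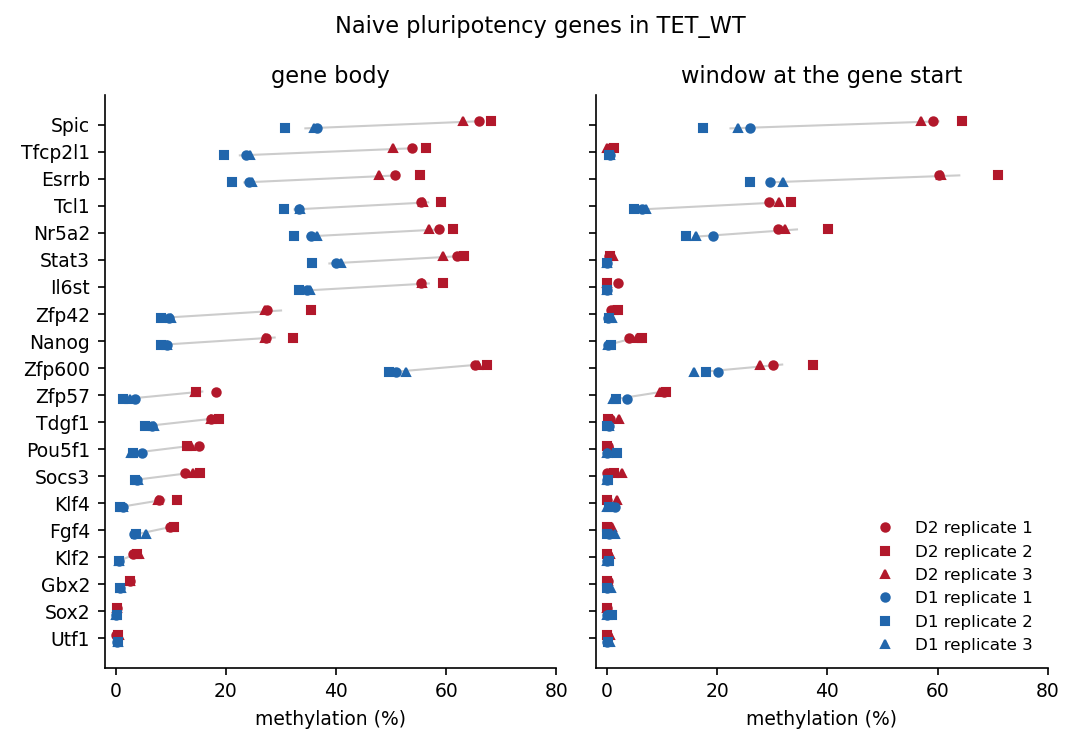
Methylation in percent (x axis) of the naive pluripotency genes with a start value, over the gene body (left) and in the window at the start (right), with one point per D2 and D1 library of TET_WT and a grey line joining the means. At the start only Spic, Esrrb, Tcl1, Nr5a2 and Zfp600 moved by over 10 points, while Tfcp2l1 lies near 0 at the start and averages 53.5% on D2 and 22.5% on D1 over its body; rises under 22.6 points lie below the shift of library medians.

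Within Esrrb, an orphan nuclear receptor gene of the naive network on the plus strand of chromosome 12, the gain was uneven. Of 45 windows 42 rose, and the changes ran between 1.18 and 47.5 points. The window at the outermost annotated start (chr12:86360361-86363038) had 60.3%, 70.9% and 60.6% on D2, and 29.7%, 26.03% and 31.9% on D1. A CpG-dense window further in (chr12:86421908-86422683), centred 61.2 kb from that start, averaged 1.45% on D2 and 0.270% on D1. It and its neighbours on either side, at 9.59% and 9.62% on D2, were the 3 windows not called. Farther along, windows close to 0 on D1 rose. Among these chr12:86505003-86508061 had 50.6%, 61.0% and 45.5% on D2, and 4.86%, 2.15% and 7.51% on D1, without overlap, a rise of 47.5 ± 3.00 points, after 0.812% on D0.

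**Figure D5:**
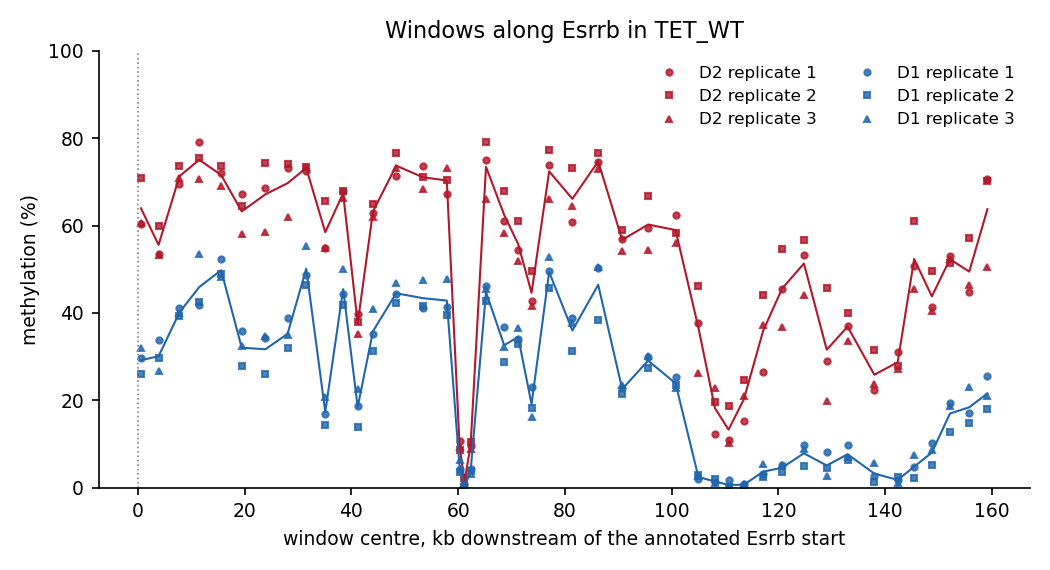
Methylation in percent (y axis) of the windows across Esrrb by distance from the annotated start in kb (x axis), with one point per D2 and D1 library of TET_WT and lines through the means. The D2 mean lies above the D1 mean in each window, both days dip near 61.2 kb, and the window near 145 kb stands at 52.4% on D2 and 4.84% on D1.

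Windows that rose by 40 points or more numbered 717. They were chosen by their rise, so their levels describe them only. Their median level was 8.09% on D0, 19.14% on D1 and 61.8% on D2. Inside genes lay 78.0% of them, against 52.3% of all windows, and 0.697% held a start, against 3.24%. The same windows gained a median of 47.7 points in DNMT_WT and 20.9 in TET_KO, where all windows gained 39.5 and 11.6. Such a window lay in 404 of 20352 genes (1.99%) and in 6 of 34 naive genes, namely Esrrb, Fbxo15, Nanog, Pecam1, Prdm14 and Tfcp2l1. Among 31 formative genes Tcf7l1, a Wnt pathway repressor, held one, and among 26 genes of the methylation machinery Uhrf1 did. Other lists also lay above 1.99%, with 4 of 49 haematopoietic and endothelial, 3 of 39 placental, 4 of 57 Wnt, 3 of 44 Nodal and 2 of 44 imprinted genes, and these lists have more windows per gene than the naive list. Prdm14, a repressor of de novo methylation genes, had 60.8%, 77.7% and 57.9% on D2, and 23.8%, 25.2% and 26.3% on D1 in its window (chr1:13117201-13120698). Fbxo15, an F-box gene of stem cells, had 61.2%, 60.7% and 54.6% on D2, and 20.2%, 12.9% and 18% on D1 (chr18:84939204-84946575). Neither overlapped between days.

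The largest rise lay in Jdp2, a transcription factor gene (chr12:85619233-85622632), with 58.5%, 68.1% and 60.04% on D2, and 11.6%, 6.71% and 6.96% on D1, a rise of 53.7 ± 1.98 points without overlap. It gained 57.0 points in DNMT_WT and 50.9 in TET_KO, and the step did not pass the test against TET_KO (difference 2.88, limma adjusted p = 0.37). The other 7 of the 8 largest rises, in Mapt, Llgl2, Ninl and Ak4 and near Pla2r1 and Tbx3, exceeded the TET_KO step by 12.8 to 32.6 points. On D1 these 7 windows already stood between 32.8% and 63.9% in TET_KO, against 7.74% to 17.3% in TET_WT. In TET_KO the Llgl2 window gained 35.8 points, the Ninl window 36.2 and the Ak4 window 25.02. Of a pair of adjoining windows of Mapt, which encodes tau, one (chr11:104302322-104305027) had 58.4%, 72.4% and 61.5% on D2, and 15.1%, 13.02% and 16.4% on D1, a rise of 49.3 ± 2.43 points beside 44.2 in DNMT_WT and 21.8 in TET_KO. A window outside genes, 8096 bp from the phospholipase receptor gene Pla2r1 (chr2:60405099-60409447), had 68.5%, 73.9% and 63.4% on D2, and 16.5%, 15.1% and 20.2% on D1. Its step exceeded that of TET_KO by 32.6 ± 3.08 points (limma adjusted p = 1.4e-07). Another, 54521 bp from the T-box factor gene Tbx3 (chr5:119612509-119616013), had 55.5%, 68.4% and 54.1% on D2, and 11.7%, 6.78% and 9.04% on D1. The days did not overlap at these windows.

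Formative and primed epiblast genes rose at 16 of 31 bodies, where 90.6% of all bodies did. They rose at 0 of 16 starts by limma, against 44.3% of all starts, with 5 starts higher at an unadjusted p under 0.05. Of the 16 starts 15 were under 10% on D2, against 42.8% of all starts. Tcf7l1 rose over its body by 27.3 ± 1.04 points. Fgf5, a growth factor of the formative state, had 45.5%, 47.8% and 42.8% on D2, and 26.5%, 25.5% and 27.5% on D1 over its body. At its start Fgf5 had 0.287%, 1.12% and 0.360% on D2, and 0.370%, 0% and 0.738% on D1. The days did not overlap over the Fgf5 body and overlapped at its start. Otx2, a homeobox factor that drives the transition, averaged 11.2% ± 0.858 on D2 and 7.33% ± 0.238 on D1 over its body. The forkhead factor gene Foxd3 averaged 0.580% ± 0.0957 on D2 and 0.679% ± 0.330 on D1.

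Genes of the methylation machinery rose at 22 of 26 bodies (84.6%, near the 90.6% of all bodies) and 2 of 21 starts (9.52%, against 44.3% of all starts). At its outermost annotated start Dnmt1, the maintenance enzyme, had 55.6%, 65.9% and 54.8% on D2, and 39.6%, 29.0% and 39.3% on D1, without overlap, a rise of 22.8 ± 3.34 points. Dnmt1 is known to have an oocyte start beside its somatic one, and only the outermost was measured. Tet1, the main Tet enzyme of stem cells, had 5.98%, 11.2% and 7.93% on D2, and 2.02%, 1.22% and 2.51% on D1, without overlap, and its change of 6.45 ± 1.07 was under the 10-point minimum. Dnmt3b averaged 9.71% ± 1.501 on D2 and 5.56% ± 1.33 on D1 at its start. Uhrf1 averaged 0.856% ± 0.642 on D2 and 0.980% ± 1.17 on D1 and Tet2 averaged 0.113% ± 0.196 on D2 and 0.433% ± 0.430 on D1. Polycomb subunit genes rose at 23 of 28 bodies and 4 of 18 starts, 82.1% and 22.2%, with the PRC2 cofactor gene Aebp2 at 23.8% ± 3.36 on D2 and 4.02% ± 1.15 on D1 at its start.

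Germline genes rose at 37 of 37 bodies, where 90.6% of all bodies did, and at 20 of 29 starts (69.0%, against 44.3% of all starts), with a start median of 14.1 points beside 7.98 for all starts. Tdrd9, whose promoter is printed above, had 59.4%, 74.96% and 62.6% on D2, and 38.4%, 43.0% and 40.7% on D1, without overlap, a rise of 24.9 ± 2.69 points. Hormad2, a protein of meiotic chromosomes, rose by 24.3 ± 2.65 at the start. Smc1b, a meiotic cohesin gene with 25 upstream CpGs that was singled out after its values were seen, had 4.88%, 6.54% and 3.48% on D2, and 5.0%, 8.84% and 9.23% on D1. The days overlapped, and the change of -2.73 ± 1.40 points did not pass the test (limma adjusted p = 0.092). The same start gained 6.27 points in DNMT_WT and 4.84 in TET_KO. TET_WT less DNMT_WT was -8.99 (limma adjusted p = 5.3e-04) and TET_WT less TET_KO was -7.56 (limma adjusted p = 0.0073).

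Haematopoietic and endothelial genes, the lineages of interest in the series title, rose at 42 of 49 bodies (85.7%, against 90.6% of all), with a median of 19.2 points, and at 14 of 34 starts, 41.2% beside 44.3% for all starts. Tie1, whose promoter is printed above, had 70.04%, 67.8% and 65.3% on D2, and 35.0%, 34.6% and 35.6% on D1, without overlap, a rise of 32.7 ± 1.47 points (limma adjusted p = 1.7e-13). Cbfa2t3, a corepressor of blood progenitors, rose by 28.6 ± 2.57 at its start and Epor, the erythropoietin receptor gene, by 27.5 ± 1.89. At the start of Ikzf1, a lymphoid factor with 44 upstream CpGs, the libraries had 0%, 0% and 0% on D2, and 1.28%, 0% and 0.168% on D1.

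Beside the 90.6% of all bodies and 44.3% of all starts, neuroectoderm genes rose at 8 of 38 bodies, with a median of 5.35 points, and at 1 of 24 starts, or 2 without D1 replicate 1. The start was that of Pax2, a kidney and midbrain factor, with 30.9%, 35.3% and 33.5% on D2, and 19.8%, 18.6% and 15.0% on D1, without overlap. Mesoderm and endoderm genes rose at 19 of 37 bodies (51.4%) and 7 of 22 starts (31.8%), with Hnf4a, a liver factor, up by 28.2 ± 1.88 points at its start and Tbx6, a factor of paraxial mesoderm, by 26.99 ± 2.72. Placental and extraembryonic genes rose at 31 of 39 bodies (79.5%) and 15 of 25 starts, with a start median of 15.5 points. Nostrin led their starts with 33.1 ± 1.99, followed by the hormone receptor gene Pth1r with 30.4 ± 2.46.

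Signalling genes rose over the body at 36 of 43 for FGF and ERK, 34 of 44 for Nodal and TGF-beta and 45 of 57 for Wnt, shares of 83.7%, 77.3% and 78.9% beside 90.6% of all bodies. Starts rose at 1 of 26 for FGF and ERK, 4 of 23 for Nodal and TGF-beta and 3 of 33 for Wnt, where 44.3% of all starts did. The FGF start was that of the receptor gene Fgfr2, with 28.0% ± 2.22 on D2 and 15.1% ± 1.26 on D1. Furin, a convertase that processes Nodal, had 60.9% ± 2.23 on D2 and 32.5% ± 3.49 on D1 at its start. Ubiquitously expressed genes rose at 15 of 27 bodies and 3 of 20 starts, with 5 starts without D2 replicate 1 and 1 without both libraries numbered 2. At the start of Gapdh, a glycolytic enzyme, the libraries had 0.269%, 0% and 0% on D2, and 0%, 0% and 0.772% on D1.

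Gene families are given beside the 90.6% of all bodies that rose and their median of 18.9 points, with no test between families. Hox genes rose at 2 of 39 bodies with a median of 5.68 points, histone cluster genes at 15 of 67 with 4.20 and clustered protocadherins at 12 of 57 with 8.60. Keratin genes rose at 49 of 49 with 21.6 and Slc transporter genes at 324 of 333 with 20.2, both near the background. Olfactory receptor genes rose at 914 of 1099 with 14.2, beside 29.0 in DNMT_WT and 16.03 in TET_KO, where all bodies gained 33.8 and 10.1. Members of a family often share a cluster on a chromosome and are not independent.

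Imprinted genes rose at 33 of 44 bodies (against 90.6% of all) and 6 of 30 starts (against 44.3% of all), or 10 starts without D1 replicate 3. The parental copies cannot be told apart in these values. Zrsr1 rose at its start by 17.5 ± 1.70 points and Mest, a paternally expressed gene, by 16.7 ± 2.70. Nap1l5, whose promoter is printed above, had 14.7%, 5.74% and 2.97% on D2, and 14.5%, 10.5% and 23.4% on D1. The days overlapped, and the change of -8.34 ± 3.22 points (limma adjusted p = 0.025) was under the 10-point minimum and it no longer passed 0.05 without D1 replicate 3, D2 replicate 2 or D2 replicate 3, or with the 6 libraries fitted alone. Mcts2 had 0.282%, 0% and 0.258% on D2, and 7.36%, 0% and 0.795% on D1, a change of -2.54 ± 1.00 that was -0.218 without D1 replicate 1.

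Losses were rare, and their number was not stable, with 10 to 17 windows called when 1 library was left out (17 without D1 replicate 1, 14 without D1 replicate 2 or 3, 15 without D2 replicate 1, 10 without D2 replicate 2 and 13 without D2 replicate 3). Of the 7 windows that fell by at least 10 points, 4 had every D2 library below every D1 library, and 2 kept the call without each library in turn. The first of these 2 (chr12:63119694-63120559, 1261766 bp from its nearest gene, Lrfn5) had 58.5%, 41.1% and 52.5% on D2, and 65.0%, 72.3% and 74.0% on D1, a change of -19.7 ± 4.65 points (limma adjusted p = 2.4e-04). The second (chr13:85469438-85470230, 179952 bp from Rasa1) had 26.1%, 33.3% and 15.3% on D2, and 40%, 46.3% and 39.9% on D1, a change of -17.1 ± 3.97. The days did not overlap at either. On D0 these windows had averaged 51.0% and 24.2%, so D1 stood above both D0 and D2. They were chosen for D1 above D2, which also favours a D1 level above D0. In DNMT_WT the same windows changed by 4.23 and 13.2 points, and in TET_KO by 1.65 and -6.22. The last had the same direction as TET_WT. At any size 145 windows fell, 138 of them under 1 kb long, and 37 of the 145 did not overlap between days. The medians of the 145 were 0.189% on D0, 2.41% on D1 and 0.175% on D2.

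Smaller falls without overlap, picked after the values had been seen, included windows at a pair of imprinted genes. One, 27413 bp from the exchange factor gene Rasgrf1 (chr9:89879865-89882095), had 13.5%, 5.95% and 8.83% on D2, and 18.4%, 20.1% and 19.05% on D1, a change of -9.74 ± 2.23 points (limma adjusted p = 1.6e-04). TET_WT less DNMT_WT was -11.1 points there and TET_WT less TET_KO was -12.3. On D1 DNMT_WT averaged 1.16% and TET_KO 3.47% in this window, too low to fall as far as TET_WT. The other, within the translational regulator gene Impact (chr18:12973543-12974133), had 2.39%, 0% and 5.43% on D2, and 12.8%, 7.92% and 7.89% on D1, a change of -6.93 ± 1.57. The days did not overlap at either. Both kept an adjusted p under 0.05 in limma without each library in turn, at most 0.0032 and 0.0037. The remaining fall of 5 to 10 points without overlap lay outside genes, 1016942 bp from Cdc73 (chr1:142581964-142586334). Its change was -9.17 points, and its adjusted p in limma rose to as much as 0.197 with 1 library left out.

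Windows that kept their level over the second day were sought in 2 sets, and windows outside both are not described. Some 16270 windows were under 5% in all 6 libraries, 13777 of them under 1 kb long, and 28.2% held a gene start, against 3.24% of all windows. The other set was drawn from the 284942 windows at 20 to 60% on D0. Of these, 751 changed by under 5 points, with medians of 50.8% on D2, 48.6% on D1 and 38.4% on D0. The first day had added a median of 9.25 points to the 751, beside 8.87 for the 284942. Choosing the 751 by a small change from D1 favours a high D1, which also raises their first-day value. Inside genes lay 24.0% of the 751, against 51.3% of the 284942. In DNMT_WT the 751 gained a median of 29.3 points and in TET_KO 8.43, against 42.3 and 11.2 for the 284942.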

How the data were processed

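Whole-genome bisulfite sequencing of 27 libraries was deposited as 1 table of percent methylation in windows of 100 CpGs. The percent values were made by the authors. Reads were handled with Trim Galore 0.6.6, cutadapt 2.3 and Bismark 0.23.0 on GRCm38, per the submitters' processing notes. Coverage is not in the table, so depth is unknown and no interval from counts is given. How reads and sites were weighted in a window is not given in the sources used here.

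Windows on autosomes with a value in every library were fitted in limma 3.58.1 (R 4.3.3) with 1 mean per line and day over 27 libraries (18 residual degrees of freedom, trended variance), and the same fit was run on gene-body means and on the window holding each RefSeq start. Calls needed a Benjamini-Hochberg adjusted p under 0.05 over all features and a difference of at least 10 points. Library and class means were compared by exact permutation tests. Python 3.11.15 was used for summaries. The limma step was tested on simulated data with independent noise in each window. That noise had no shift shared by the windows of a library, so the test cannot show whether the pooled errors are too small for TET_WT. The labels do not say whether replicate numbers pair the libraries, and the main fit did not pair them. The deviations of same-numbered libraries had correlations of -0.0121, -0.0604 and -0.0257 over windows. These cannot show whether such libraries shared a culture or batch.

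The members and gene lists were chosen with earlier results of these data known. Of 549 listed names 534 matched a gene. By the rule for names, the text may name the 3 called members of a list with the largest change and the 2 with the smallest, any naive, formative, Tet or Dnmt gene and Uhrf1, the 8 largest rises, all called falls, the 4 highest and 4 lowest bins of 1 Mb, and the 4 windows that differ most from each other line in each direction. Alternatives were leaving out each library, the replicate block, centring on library medians, a logit scale, other minimum differences and other starts.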

Additional observations from a re-analysis of the deposited data

Results flagged for a closer look

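Each result here is a difference between lines in the change over the second day, TET_WT less the other line, in percentage points. The genome mean steps differed by -16.7 points from DNMT_WT and by 7.97 from TET_KO. The length dependence (8 to 16 kb less 3 to 8 kb) differed by 3.35 points from DNMT_WT and by -9.27 from TET_KO.

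Single windows were taken as the largest differences in limma in each direction. TET_WT gained more than DNMT_WT by 25.2 points in a window outside genes (chromosome 11 from 19409238), by 22.9 in Gm29721 (chromosome 17 from 6580461), by 21.04 in Tex21 (chromosome 12 from 76228217) and by 20.6 in Ppp1r15b, a regulator of the stress response (chromosome 1 from 133131614). The first of these missed the test without D1 replicate 3 (difference 21.5) and without D2 replicate 2 (19.9). TET_WT gained less than DNMT_WT in 4 windows outside genes, with differences of -53.9 (chromosome 3 from 55584293), -50.8 (chromosome 18 from 71082752), -50.8 (chromosome 12 from 65803107) and -50.7 (chromosome 17 from 83256248). In those 4 windows TET_WT was already between 71.2% and 83.5% on D1.

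TET_WT gained more than TET_KO by 42.5 points in Tex2 (chromosome 11 from 106584257), by 41.8 outside genes (chromosome 1 from 103117389), by 41.7 in Tsnax (chromosome 8 from 125020680) and by 40.1 in Auh (chromosome 13 from 52904304). In those 4 windows TET_KO was already between 78.6% and 92.6% on D1. The differences were -30.5 points in the receptor kinase gene Erbb4 (chromosome 1 from 68608816), and outside genes -29.1 (chromosome 1 from 171490426), -27.2 (chromosome 7 from 48403544) and -25.7 (chromosome 7 from 40224575). In these 4 windows the D2 and D1 libraries of TET_WT overlapped. The difference of -27.2 became -16.3 without D2 replicate 3. With 1 library left out, that of -29.1 ran between -39.4 and -20.7 and that of -25.7 between -34.7 and -19.8. The windows with -30.5 and -29.1 were also called falls in TET_WT. Those calls were lost in some fits with 1 library left out (limma adjusted p up to 0.105 and 0.336).

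At the Nanog start the difference was -6.95 points from DNMT_WT and -14.9 from TET_KO. The Smc1b start differed by -8.99 points from DNMT_WT and by -7.56 from TET_KO. In the window near Rasgrf1 (chromosome 9 from 89879865) the differences were -11.1 from DNMT_WT and -12.3 from TET_KO. In the Impact window (chromosome 18 from 12973543) they were -6.91 and -7.56. On D1 DNMT_WT and TET_KO averaged 1.16% and 3.47% near Rasgrf1, and 0.218% and 0.143% in the Impact window. Neither line could therefore fall there by as much as TET_WT. Rasgrf1, Impact and Smc1b were picked after their values had been seen.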

How the results depend on the processing

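With 1 library left out in turn, 358115 to 379797 windows, 17815 to 18714 bodies and 5755 to 6613 starts rose. Of the list counts, starts that rose became 10 of the imprinted genes (against 6), 5 of the ubiquitously expressed (against 3) and 2 of the neuroectoderm genes (against 1). The counts over all features that moved by over 1.5 times were falling windows (10 to 17, against 7), falling starts (0 to 2, against 1), windows with a larger step than in DNMT_WT (31 to 80, against 39) and windows with a smaller step than in TET_KO (3963 to 11125, against 5514). Without both libraries numbered 2 these became 23 falling windows, 2 falling starts and 14527 windows with a smaller step than in TET_KO. Falling windows were 3 on a logit scale and 145 at any size. With a minimum of 20 points 225240 windows and 8394 bodies rose and 0 windows fell (limma; 145 fell at an adjusted p under 0.05 alone). Falling starts were 0 with windows within 1 kb of the start. Removing line means before permuting left the line differences at -16.7 and 7.97, with a permutation p of 0.005.

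Centring on library medians, which moved by 22.6 points, gave 8701 windows higher and 74193 lower, 20 bodies higher and 3381 lower, and 79 starts higher and 9060 lower. The step was larger than in DNMT_WT at 48939 windows and smaller at 14192, and larger than in TET_KO at 14587 and smaller at 67070. Centred changes turned negative over the bodies of Nanog (-2.73), Klf4 (-14.9), Sox2 (-22.6), Fgf5 (-3.80) and Otx2 (-18.8). They did so at the starts of Klf4 (-22.6), Tfcp2l1 (-22.6), Nanog (-17.8), Nr5a2 (-4.71), Zfp600 (-8.79), Otx2 (-19.2), Fgf5 (-22.4), Dnmt3b (-18.5), Dnmt3l (-18.1), Tet1 (-16.2), Pax2 (-7.24), Zrsr1 (-5.15), Mest (-5.93), Aebp2 (-2.83) and Fgfr2 (-9.81).

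Changes near 0 had no stable sign. Leaving out 1 library gave -0.0460 to 0.405 at the Fgf5 start, -0.255 to 0.0735 over Foxd3, -0.296 to 0.0896 at the Gapdh start, -0.627 to 0.448 at the Klf4 start, -0.287 to 0.301 at the Tfcp2l1 start and -0.613 to 0.525 at the Uhrf1 start. Without both libraries numbered 2 the Fgf5 start had -0.231 and the Tfcp2l1 start -0.339.

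Whether the numbers pair the libraries is not known. With the replicate block 374538 windows rose and 8 fell, and the length differences of 3.35 and -9.27 then had p = 0.1 in the exact permutation test, its lowest possible value. Coverage is unknown, so short windows near 0 cannot be given a counting error, and exact tests of 3 D2 against 3 D1 libraries cannot go below 0.1.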
